A study of Mus musculus with 7 samples.

Results

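Mirtrons are microRNAs (miRNAs) whose hairpin precursors are cut out of messenger RNA precursors by the splicing machinery in place of Drosha, the nuclear enzyme that releases most miRNA hairpins. The mouse miRNAs numbered miR-6896 to miR-7094, catalogued together as predicted mirtrons, were followed here in the colorectum of healthy mice and of mice with colorectal cancer (CRC). Of 403 mature entries with a number in this range, 273 had at least 20 counts summed over all mice and are the members described below, out of 1915 entries in the table. They comprised 151 entries from the 5p arm and 122 from the 3p arm of 176 hairpins, and 97 hairpins contributed both arms. The 7 members whose name carries a letter or copy number were counted under their number. The members were chosen by their summed count, so their abundance is given as a description. The sum took no account of group, but an entry high in only some mice can pass the minimum through them. The members were also chosen with earlier results of these data known.

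All mice were wild-type C57BL/6 females, 7 weeks old per the labels. The 3 CRC mice (M4, M5 and M6) were injected with 10 mg/kg of azoxymethane (AOM), which causes colon tumours, followed after 5 days by cycles of dextran sodium sulfate (DSS), which damages the colon lining. A cycle was 7 days of 2.5% DSS in the water and 14 days of plain water, and the CRC tissue is labelled stage T1, day 17. The 3 healthy mice (M1, M2 and M3) had received 0.9% saline in place of AOM. No group had AOM or DSS alone, so carcinogen, injury and tumour cannot be told apart. Column M1 stands for a mouse with 2 labelled libraries, and the labels do not say which of them it holds, or whether it is their sum.

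After splicing, an intron is a lariat that is opened by the debranching enzyme. In a classical mirtron the opened intron folds into a hairpin that Dicer can cut directly. In a tailed mirtron the hairpin sits at only 1 end of the intron, and an exonuclease must trim the rest first. Since the intron begins with GU at the splice donor and ends with a pyrimidine tract and AG at the acceptor, these letters fall into the arms of the hairpin. Mirtron products are usually scarce next to canonical miRNAs, and few of the members have a known target.

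The sequences below, from the deposited table, are the members that the results turn on: the 10 most abundant, the pair called higher in CRC mice (miR-6937-5p and miR-6988-5p), and miR-7051-3p, which was among the 5 highest fold changes. Capitals mark the seed, bases 2 to 8 counted from the 5′ end, which pairs with target messenger RNAs.
miR-7034-5p: tCCGGGAGggatggatgtgct
miR-6937-5p: tAGCTGTAagggctgggtctgtgt
miR-7003-3p: cCCCGGGTtttccccacag
miR-6968-5p: aGGGGGCGagggggccctgtgg
miR-7035-5p: gGCTGGGAgagtggctcagaa
miR-7075-5p: cGGGGAGGaggacatggtttt
miR-7050-5p: aCAGGAGAagggggtgagaga
miR-6973a-5p: tACGGTGGgaggggtggagttg
miR-7067-5p: tGCAGGGGgtggttgcacacgga
miR-7081-3p: tTCCCCTGgtatcctcctcaca
miR-6988-5p: gGGGTGGAgagctgaggccca
miR-7051-3p: tGAGCCACtgattcctgtgtgc
The 5p sequences are rich in runs of G, while the 3p sequence of miR-7003 is a pyrimidine-rich stretch that ends in CAG. RefSeq (GRCm38.p6) held 249 of the 273 members by name, all with the identical sequence.

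The label of predicted mirtron was set beside the positions of the hairpins in GRCm38, the build named in the submitters' processing notes. Of the 203 hairpins of the range, 198 were located, 177 in RefSeq and 21 in GENCODE M21, and 197 of these lay in an intron of a gene on the same strand. In 184 of 198 hairpins (92.9%) the 3′ end lay within 5 bases of the splice acceptor. At the donor, 19 hairpins (9.60%) began within 5 bases of the intron start. Among 866 other located hairpins of the table, of which 438 lay in a host intron, 37 (4.27% of all 866) ended at an acceptor and 11 began at a donor. Within that limit, 15 hairpins of the range filled their intron from donor to acceptor, the classical form, and 169 touched the acceptor alone, the form in which bases upstream of the hairpin have to be removed. By annotation most hairpins thus lay at the 3′ splice site, and few of them were whole introns. Mirtrons lie at intron ends by definition, so this describes the catalogue. It uses no reads of these mice and does not test the label.

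The following hairpins, in RNA letters from RefSeq (GRCm38.p6), show both forms, with the 2 mature arms in capitals. The first 3 end at the acceptor but begin inside the intron, and the last 3 are whole introns.
mir-6937: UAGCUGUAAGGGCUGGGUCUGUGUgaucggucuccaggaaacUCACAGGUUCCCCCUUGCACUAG
mir-7034: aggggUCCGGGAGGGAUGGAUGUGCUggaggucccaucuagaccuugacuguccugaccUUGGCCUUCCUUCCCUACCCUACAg
mir-7003: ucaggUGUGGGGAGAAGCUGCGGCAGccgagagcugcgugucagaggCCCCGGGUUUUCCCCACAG
mir-6923: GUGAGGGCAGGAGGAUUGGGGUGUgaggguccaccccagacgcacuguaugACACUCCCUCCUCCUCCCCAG
mir-6958: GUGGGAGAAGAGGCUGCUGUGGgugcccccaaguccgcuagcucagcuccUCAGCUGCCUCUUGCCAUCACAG
mir-7018: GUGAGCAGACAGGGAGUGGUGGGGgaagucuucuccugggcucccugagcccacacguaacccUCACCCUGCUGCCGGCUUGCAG
All 6 end in AG, and the 3 whole introns also begin with GU. The mir-6937 hairpin (chr12:28679325-28679389, plus strand) forms the last bases of a 1492-base intron of Adi1, an enzyme of methionine salvage. The mir-7034 hairpin (chr5:135735806-135735889, minus strand) starts 7 bases into a 91-base intron of Tmem120a, a membrane protein gene. The mir-7003 hairpin (chr2:163068090-163068155, plus strand) ends a 3655-base intron of Mybl2, a transcription factor of the cell cycle. The mir-6923 hairpin (chr11:67099804-67099875, plus strand) is a 72-base intron of Myh3, a myosin heavy chain. The mir-6958 hairpin (chr15:89185465-89185537, minus strand) is a 73-base intron of Dennd6b. The mir-7018 hairpin (chr4:137538286-137538370, plus strand) lies in Hspg2, which encodes perlecan.

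Host introns of the range had a median length of 465 bases, from 66 to 36269 bases: 62 were shorter than 150 bases, 70 were 150 to 1000 bases and 65 were longer. The mature 3p sequence ended on the last base of the intron in 132 of 171 hairpins with known arm positions (77.2%), against 20 of 263 other hairpins in introns (7.60%). The mature 5p sequence began on the first base of the intron in 15 of 173. Reads followed the hairpin counts: the 223 members from acceptor-only hairpins held 21992 member reads (88.2%), and the 21 members from whole introns held 1332 (5.34%). In addition 62 members with 6750 reads came from hairpins that overlapped an annotated exon of the same strand. Those of miR-7035-5p (Rasa4), miR-7050-5p (Fxyd5) and miR-7051-3p (Etfb) were among them. The overlap was taken over the whole hairpin and any transcript, so a mature arm need not lie in the exon. Where a mature sequence does lie in such an exon, its reads and those of the exon cannot be told apart in these counts.

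**Figure D1:**
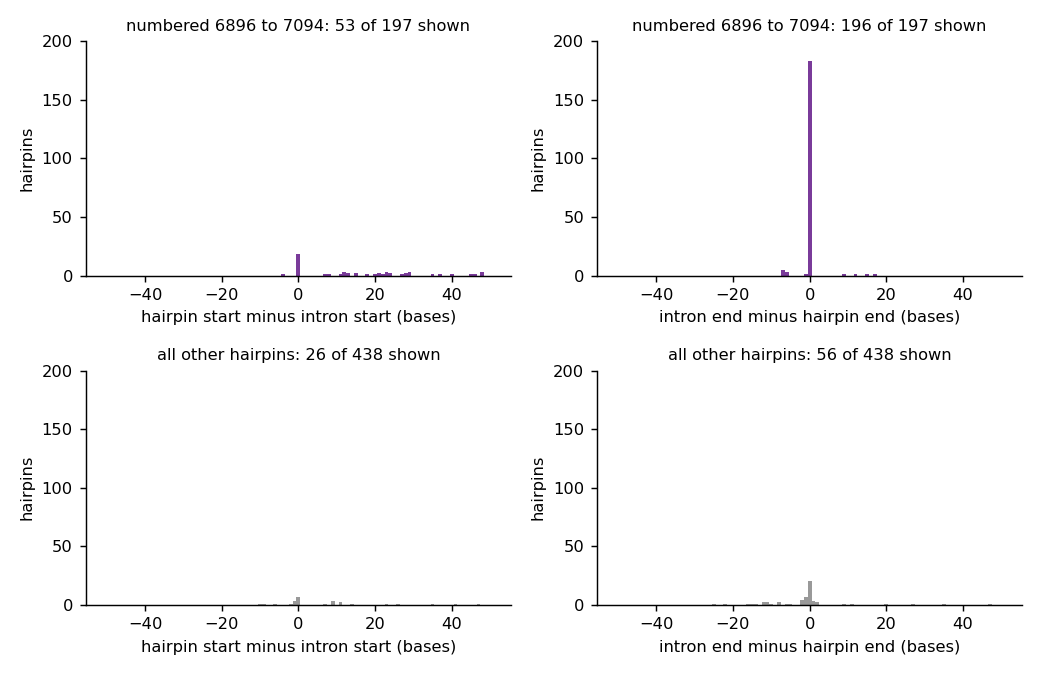
Distance in bases from the start of each hairpin to the first base of its host intron (left) and from its end to the last base of that intron (right), as numbers of hairpins, for the range (top) and for all other hairpins in introns (bottom), in a window of 50 bases. The range has a single tall bar at 0 on the acceptor side and a small one at 0 on the donor side.

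The letters of the mature sequences were set against those of splice sites, as a description. Among 5p members, 44.7% of bases were G, 67.6% were purines, and 112 of 151 (74.2%) held GGG, against 26.9% of other 5p entries. Only 13 of them (8.61%) began with GT, against 4.42% of other 5p entries. Among 3p members, 72.3% of bases were pyrimidines and 40.8% were C. The acceptor letters AG closed 97 of 122 3p members (79.5%), against 10.2% of other 3p entries, and CAG closed 68.9%, against 5.17%.

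GC content (G plus C, in percent of the mature sequence) had a median of 58.3% in the 273 members, from 23.8% to 85.7%. The 5p members had a median of 59.1% and the 3p members 56.5%. Entries of the range below 20 counts had 54.5%, against 50% in all entries outside the range. The mean over members was 58.2% ± 9.09 (SD over members), and it was 60.7% with each member weighted by its reads.

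The seeds were largely private. Over the 264 members compared there were 246 distinct seeds, of which 15 were shared by 33 members, and 46 members had the seed of an entry outside the range. The most abundant member miR-7034-5p shared CCGGGAG with miR-7071-5p. The seed GGGGAGG was common to miR-7030-5p, miR-7075-5p and miR-7076-5p. These are shown because members that share a seed need not share a level.
miR-7071-5p: cCCGGGAGcgaggtgctgcagcg
miR-7030-5p: tGGGGAGGtggctgtgctagtc
miR-7076-5p: aGGGGAGGtggtatggtctca
Summed over mice, miR-7075-5p had 968 counts, whereas miR-7030-5p had 27 and miR-7076-5p had 22.

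Total miRNA counts were 6601899 to 15280434 in M1 to M4 and 3565435 and 3206127 in M5 and M6. Levels below are in CPM, counts scaled to the size of their library, with library sizes adjusted by TMM, which corrects for the composition of each library. Factors ran from 0.582 in M2 to 1.55 in M5. The composition of the tissue RNA differed between mice. Listed smooth muscle miRNAs (7 of 7 measured) took 41.6% and 48.0% of reads in M1 and M2, 21.1% and 20.7% in M3 and M4, and 7.08% and 6.55% in M5 and M6. Epithelial miRNAs (9 of 9 measured) were present in every mouse, at 12.4% to 17.7%. Red blood cell miRNAs (3 of 3) took 0.0164% to 0.0621% in healthy mice and 0.0445%, 0.286% and 0.150% in M4, M5 and M6, and immune cell miRNAs (4 of 4) took 0.184% to 1.68% and 0.752% to 1.19%. The entries from miR-6236 to miR-6240 and miR-6538, listed as a possible measure of RNA breakdown, took 0.0103% to 0.0230% in healthy mice and 0.0775%, 0.717% and 0.824% in M4, M5 and M6, and 5 of their 5 tested entries were called higher in CRC mice. Their part in the results below was not tested. Fewer cells of a type and less RNA per cell cannot be told apart in these samples.

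The members were rare. Their summed count over 6 mice had a median of 38, quartiles of 29 and 61 and a highest value of 1652, and 37 of 273 reached 100 counts. All members together held 24939 reads, 0.0506% of the reads in the table, and the 10 most abundant held 10575 of these (42.4%). The mean level over mice was below 1 CPM for 146 members and 51.7 CPM at most. Just inside the minimum, at 20 counts, were 5 members: miR-6930-5p, miR-6938-3p, miR-6953-3p, miR-7017-3p and miR-7039-5p. Just outside, at 19 counts, were 13 entries, miR-6915-5p and miR-6926-3p among them.

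The pooled share of reads was higher in M5 and M6 than in the other mice. In the healthy mice the members took 0.0289% (M1), 0.0185% (M2) and 0.0381% (M3) of miRNA reads. The CRC mice had 0.0406% (M4), 0.197% (M5) and 0.178% (M6). The groups did not overlap, but M4 lay next to M3: exact 95% binomial intervals, which cover counting error only, were 0.0368% to 0.0395% in M3 and 0.0391% to 0.0421% in M4. The mean was 0.0285% ± 0.00982 in healthy and 0.138% ± 0.0852 in CRC mice (SD, n = 3 each), a ratio of 4.86. The ratio varied with the summed count that chose the members. It was 7.05 for the 10 most abundant, 3.42 for members at or under the median and 2.74 for entries under the minimum. For the 10 most abundant the groups overlapped, with 0.0153% in M3 and 0.0150% in M4. As a sum over chosen members the share is given with no test.

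The ratio of CRC to healthy means stayed above 1 under the other denominators and choices of members that were tried. On TMM-scaled totals the ratio was 2.73, with 0.0401%, 0.0318% and 0.0346% in M1 to M3 and 0.0428%, 0.127% and 0.121% in M4 to M6. Without the 10 most abundant members, the other 263 took 0.0128% to 0.0229% in healthy mice and 0.0256%, 0.0951% and 0.0895% in CRC mice. The share of 5p members separated the groups, and that of 3p members overlapped, with 0.0123% in M3 and 0.0119% in M4. The 130 entries of the range below the minimum took 0.00169% to 0.00315% in healthy mice and 0.00324%, 0.0109% and 0.00655% in M4, M5 and M6.

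In raw reads the difference was smaller. The members had 3587, 2825 and 3134 reads in M1 to M3 and 2679, 7019 and 5695 in M4 to M6, and M5 and M6 were the shallowest libraries. With each profile thinned to 3206127 reads, members summed to 975, 591 and 1229 reads in healthy and 1258, 6328 and 5695 in CRC mice. At that depth 176 to 219 members were detected in a healthy mouse, 216 in M4, 267 in M5 and 258 in M6. Other entries of the table in the same range of summed counts had 9542 to 17635 thinned reads in healthy mice and 15104, 30158 and 27528 in M4, M5 and M6. The highest level of a member fell in M5 for 105 members and in M6 for 101, and in 1 of the other mice for 67.

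**Figure D2:**
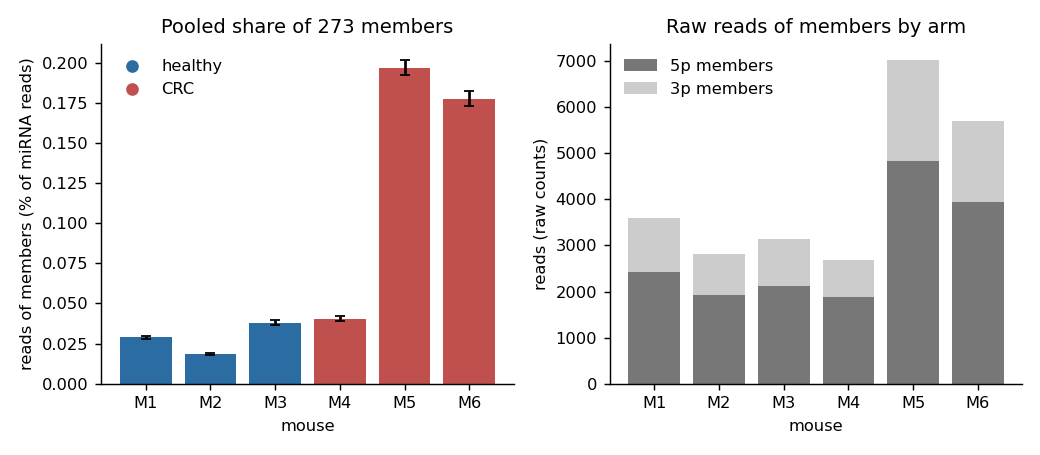
Left, reads of the 273 members in percent of all miRNA reads of each mouse, with exact 95% binomial intervals. Right, their raw reads split into 5p and 3p members. M5 and M6 stand at 0.197% and 0.178%, and M1 to M4 at 0.0185% to 0.0406%.

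The comparison of CRC with healthy mice asked which members changed beyond the spread between mice. Of 273 members, 74 passed the filter on low counts and 199 did not, so the test reached 46 of 151 5p and 28 of 122 3p members. In edgeR's quasi-likelihood test with Benjamini-Hochberg adjustment over all 878 tested miRNAs, miR-6937-5p and miR-6988-5p rose in CRC mice and 0 members fell. That is 2 of 74 members, beside a background of 2.28% of all tested miRNAs higher and 0% lower. At an unadjusted p under 0.05, 28 of 74 members were higher (background 13.6%) and 0 were lower (background 9.68%). DESeq2 called 17 members higher (background 8.66%) and 0 lower (background 3.99%), with 1 lower at an unadjusted p under 0.05. By limma-voom 0 members were called, as were 0 of all 878 miRNAs (background 0%). At an unadjusted p under 0.05 it gave 27 members higher (background 13.3%) and 0 lower (background 11.3%).

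Leaving out 1 mouse changed how many members were called higher. With M1, M5 or M6 left out, 0 were called, but neither was any other miRNA of the table (background 0% in each). With M2 left out 1 of 160 tested members was called (background 0.362%). Leaving out M3 gave 2 of 152 higher (background 2.72%) and 0 lower (background 3.18%). Leaving out M4 gave 54 of the 177 members that then passed the filter (background 14.3%) and 0 lower (background 5.64%). When both M3 and M4 were left out, 68 of 154 members were higher (background 25.8%) and 6 lower (background 27.4%). These mice lay closest across the groups in the members' share of miRNA reads and in smooth muscle share. Leaving out this pair thus widens the difference between the groups, and the count is given as a description. With smaller groups the filter also passed more members. A filter that asks for a minimum level in as many mice as a group holds passes some members only through the group where they are high, so the 74 do not stand for all members. With no filter 11 of 273 members were higher (background 2.72%) and 0 lower (57 higher, background 10.5%, and 2 lower, background 5.38%, at an unadjusted p under 0.05). RLE size factors gave 4 of 74 higher (background 2.96%) and 0 lower (background 0.228%), and total counts alone gave 10 of 74 higher (background 4.78%). With the GC trend of each profile removed, 1 was higher, miR-6937-5p (background 1.59%, also with TMM factors recomputed).

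By rank of the mice, 31 of the 74 tested members had all CRC mice above all healthy mice (background 14.1%), and 0 had them below (background 12.4%). Over all 273 members, 58 were above (background 13.6% of entries with 20 or more counts) and 2 were below (background 8.17%), namely miR-7018-3p and miR-7083-3p, named after their values were seen. In the 6 mice from M1 to M6, miR-7018-3p, from a whole-intron hairpin, had 6, 9, 29, 2, 2 and 0 counts. For miR-7083-3p the counts were 5, 2, 13, 1, 1 and 1. Neither was called without a filter (edgeR adjusted p = 0.177 and 0.449).

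As a description, the median log2 fold change (CRC over healthy) of the 74 tested members was 1.03, beside −0.03 for all 878, and 57 of 74 (77.0%) were positive beside 48.5%. With no filter it was 0.91 over 273 members beside 0.31 over 1914 entries. Scaling by total counts alone moved both, to 1.75 beside 0.62, so each direction is relative to the scale. The 46 5p members had a median of 0.96 and the 28 3p members 1.03.

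**Figure D3:**
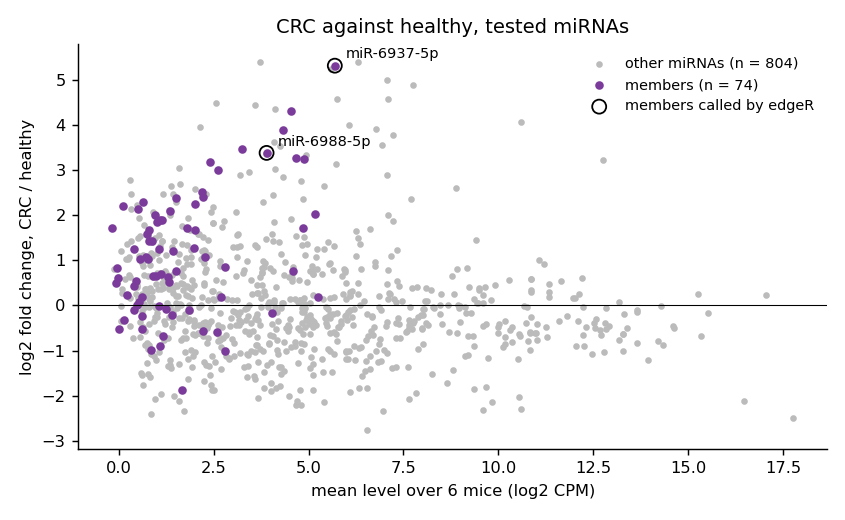
Log2 fold change of CRC against healthy mice (edgeR, TMM) against the mean level in log2 CPM, for 74 members (purple) and all other tested miRNAs (grey). Circles mark the called members miR-6937-5p and miR-6988-5p, and most members lie above the zero line at low levels.

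The strongest difference was that of miR-6937-5p, from the end of an Adi1 intron. It had 3.58, 1.35 and 2.64 CPM in M1 to M3 and 16.4, 155 and 131 CPM in M4 to M6. All CRC mice lay above all healthy mice, and M4 stood well below M5 and M6. Its log2 fold change was 5.31 (SE 0.88, edgeR adjusted p = 0.0393), between 2.52 ± 1.12 and 101 ± 74.1 CPM (SD, n = 3 each). The call was lost without M1 (edgeR adjusted p = 0.0997), M5 (0.116) or M6 (0.124).

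The other called member, miR-6988-5p, comes from an 82-base intron of Syvn1, a ubiquitin ligase of the endoplasmic reticulum (hairpin chr19:6051334-6051392, plus strand). Its levels were 2.68, 1.69 and 3.41 CPM in healthy mice and 7.03, 41.8 and 32.7 CPM in M4 to M6. The groups did not overlap. The log2 fold change was 3.38 (SE 0.71, edgeR adjusted p = 0.0464), between 2.59 ± 0.87 and 27.2 ± 18.03 CPM. It lost the call without any 1 of M1, M2, M3, M5 and M6 (edgeR adjusted p from 0.0513 to 0.149), and with the GC trend of each profile removed (2.40, edgeR adjusted p = 0.0743).

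Of the other 9 most abundant members, edgeR called 0 (background 2.28% higher), with 6 at an unadjusted p under 0.05 (background 13.6% higher). DESeq2 called 5 higher (background 8.66%). Abundance was ranked by counts summed over all mice, so a member high in M5 and M6 can rank here through them. These 9 members differed in pattern. The most abundant, miR-7034-5p, had 39.6, 38.9 and 28.8 CPM in healthy mice and 53.01, 35.6 and 34.2 CPM in CRC mice. These ranges overlapped, and the log2 fold change was 0.20 (SE 0.41, edgeR adjusted p = 0.794). It was −0.0074 without M3 and −0.13 with the GC trend removed. Similarly miR-7035-5p, from an intron of the Ras regulator Rasa4, had 25.04, 15.4 and 12.9 against 25.9, 28.04 and 36.97 CPM (0.77, edgeR adjusted p = 0.324), with all CRC mice slightly above. A healthy mouse held the highest level of miR-7067-5p: 48.3 CPM in M3, against 1.79 and 2.02 CPM in M1 and M2 and 21.1, 14.7 and 10.4 CPM in M4 to M6. Its log2 fold change was −0.17 with all mice and 2.94 without M3 (edgeR adjusted p = 0.944 and 0.0423).

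A further 6 of these abundant members were highest in M5 and M6 with M4 at or near the healthy levels. For miR-7003-3p, of the Mybl2 intron, the levels were 12.6, 12.1 and 17.5 CPM in healthy and 18.5, 80.9 and 73.7 CPM in CRC mice (log2 fold change 2.03, edgeR adjusted p = 0.084). An intron of Phf1, a partner of the Polycomb complex, holds miR-6968-5p, with 13.9, 18.4 and 8.04 against 7.03, 66.2 and 59.7 CPM (1.72, edgeR adjusted p = 0.200). With the GC trend of each profile removed its log2 fold change was −0.29, and −0.33 with TMM recomputed. In this member M4 had the lowest level of all mice.

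An intron of Terf2, a telomere-binding protein, holds miR-7075-5p, with 2.24, 2.25 and 12.2 against 3.03, 79.1 and 76.7 CPM (log2 fold change 3.24, edgeR adjusted p = 0.122). For miR-7050-5p, in Fxyd5, a regulator of the sodium pump, the levels were 6.71, 4.05 and 3.74 against 6.23, 69.7 and 63.7 CPM (3.26, edgeR adjusted p = 0.062). In both of these M4 lay within the healthy range. From Ltb, which encodes the cytokine lymphotoxin beta, came miR-6973a-5p, with 2.57, 1.57 and 2.53 against 1.28, 59.9 and 72.9 CPM (4.31, edgeR adjusted p = 0.062).

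An intron of Dnmt1, the maintenance DNA methyltransferase, holds miR-7081-3p, at 4.14, 2.14 and 1.32 CPM in healthy and 5.75, 67.7 and 40.4 CPM in CRC mice (log2 fold change 3.90, edgeR adjusted p = 0.052). Less abundant but also among the 5 highest fold changes was miR-7051-3p, of Etfb, a carrier of electrons in mitochondria. It had 2.01, 0.45 and 2.20 against 5.43, 14.8 and 32.1 CPM (3.47, edgeR adjusted p = 0.056). In these last 2 members the groups did not overlap, yet neither was called. The hairpin of miR-7051 ended 9 bases before the acceptor and so was not counted as lying at a splice site.

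**Figure D4:**
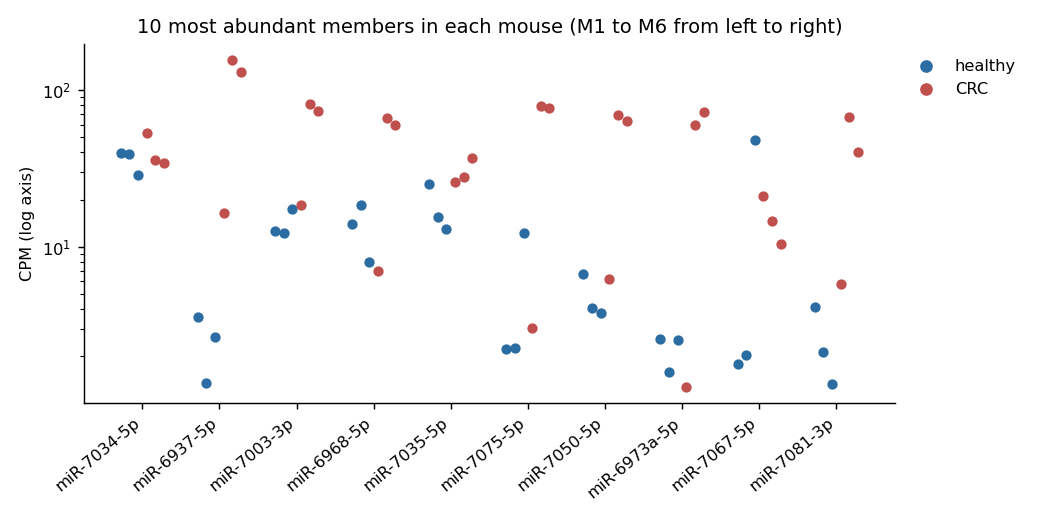
Level in CPM (log axis) of the 10 most abundant members, with 1 point per mouse from M1 on the left to M6 on the right, healthy in blue and CRC in red. In miR-7075-5p, miR-7050-5p and miR-6973a-5p the M4 point lies with or below the healthy mice, and in miR-7067-5p the highest point is the healthy mouse M3.

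The 5 lowest fold changes among tested members were smaller in size than the highest. Of these, 0 were called by edgeR (background 0% lower), 0 at an unadjusted p under 0.05 (background 9.68% lower) and 0 by DESeq2 (background 3.99% lower). The lowest was miR-6934-5p, in Tbc1d16, with 5.70, 8.88 and 0.44 CPM in healthy and 1.60, 0.36 and 2.13 CPM in CRC mice (log2 fold change −1.88, edgeR adjusted p = 0.267). M1 and M2 alone were high. In miR-7085-5p, in the glucose-6-phosphate transporter gene Slc37a4, only M1 stood apart: 19.1 CPM there against 2.97 to 5.96 CPM in the other mice (−1.02, edgeR adjusted p = 0.388). Without M1 its log2 fold change was 0.064.

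The next lowest were miR-7046-5p in Rabac1 (log2 fold change −0.98), miR-6948-3p in Acin1 (−0.90) and miR-6944-3p in Dbn1 (−0.68). The last comes from a hairpin that is a whole 96-base intron of Dbn1, the gene of the actin-binding protein drebrin. Its levels were 2.46, 2.92 and 3.08 CPM in M1 to M3 and 3.67, 1.45 and 0 CPM in M4 to M6, and the count of 0 allows up to 0.936 CPM of the unscaled M6 total. The CRC mouse M4 had the highest level of all mice, and M5 and M6 had the lowest.

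Across the 74 tested members, M1 lay close to M2 and M5 to M6. Pearson's r of log2(CPM + 1) was 0.891 between M1 and M2 and 0.934 between M5 and M6. It was 0.427 to 0.686 for all other pairs of mice, and M4 had 0.686 with M3, 0.658 with M1, 0.653 with M2 and 0.644 with M5. It is across miRNAs, which are not independent replicates, and low counts enter each value. The 2 highest CRC profiles differed little: on this scale the median difference of M5 from M6 was 0.11, whereas M5 exceeded M4 by a median of 0.63 (60 of 74 members higher). M4 exceeded the healthy M3 by 0.26 (49 of 74 higher).

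Log2 fold changes were higher at higher GC content over the whole table, and this relation was weaker among members; no test was made. Pearson's r between GC content and log2 fold change was 0.348 over 878 tested miRNAs and 0.085 over the 74 members. Below 50% GC the median log2 fold change was 0.74 in 8 members and −0.31 in 396 other miRNAs, and between 50% and 60% it was 1.07 in 29 members and −0.07 in 243 others. From 60% to 70% it was 0.64 in 26 members and 0.27 in 124 others, and at 70% or more it was 1.26 in 11 members and 1.67 in 41 others. With the GC trend of each profile removed, the median over members was 0.72. The part of GC content in the differences was not tested further.

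Listed established mirtrons outside the range, miR-1224, miR-877 and miR-702, were set beside the members. Other hairpins outside the range that fill their intron, mir-1981, mir-1982, mir-3102 and mir-3547, were not on this list. A classical mirtron, miR-1224, gave different directions on its arms: miR-1224-3p had 2.57, 1.46 and 3.30 CPM in healthy and 8.94, 148 and 123 CPM in CRC mice, and it rose (log2 fold change 5.24, edgeR adjusted p = 0.0451), while miR-1224-5p had −1.12 and did not pass the test. The classical mirtron miR-877 had 0.56 on its 5p and −0.83 on its 3p arm, and miR-702-5p had 0.50, with none called. The hairpin of miR-320, made without Drosha but not from an intron end, also split, with 3.99 for miR-320-5p (edgeR adjusted p = 0.0464) and −1.09 for miR-320-3p (0.176). The Drosha-independent miR-484 had −0.49 and was not called.

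The arms of a hairpin were compared next, as the share of 5p among 5p plus 3p reads. Of 193 hairpins of the range with at least 20 counts over both arms, 120 (62.2%) had more 5p reads, 72 more 3p reads and 1 equal numbers. Among 501 other hairpins the 5p arm led in 257 (51.3%), and in 161 of 318 (50.6%) when hairpins above the highest count of the range were left out. In 37 hairpins of the range the 5p arm was ahead in 6 of 6 mice and in 13 the 3p arm, so that 25.9% had the same arm ahead in every mouse. This share was 32.7% in the 318 other hairpins (59 and 45). With 100 or more counts it was 66.0% in 53 hairpins of the range (27 and 8) and 76.0% in 341 other hairpins (135 and 124). Of these 53, 36 (67.9%) had more 5p reads, beside 51.6% of the 341. Pooled over the range, 64.9% to 68.8% of reads were 5p in each mouse, beside 59.8% to 68.5% in all other hairpins. In the 318 other hairpins, without those above the highest count of the range, it was 42.1% to 56.6%. Without its 10 most abundant hairpins the range had 52.6% to 61.1%.

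The 6 most abundant hairpins with both arms as members used 1 arm almost alone. Reads of mir-7034 were 1652 on the 5p and 40 on the 3p arm (97.6% 5p), and of mir-6937, shown above, 1645 and 22 (98.7%). The hairpin mir-6968 had 1052 and 32 (97.0%), mir-7035 had 969 and 32 (96.8%), and mir-7050 had 854 and 33 (96.3%). The exception in direction was mir-7003, with 41 reads on the 5p and 1290 on the 3p arm (3.08% 5p). In each of these 6 hairpins the same arm led in every mouse. The minor arm of mir-6937 did not follow the major one: miR-6937-3p had 6, 6, 2, 3, 4 and 1 counts from M1 to M6, while miR-6937-5p had 32, 12, 24, 103, 856 and 618.

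Whole-intron hairpins were mixed, with 8 of 15 ahead on the 5p arm and 7 on the 3p arm. The mir-6944 hairpin had 14 reads on the 5p and 107 on the 3p arm, mir-6958 had 43 and 102, and mir-6923 had 75 and 42. Among hairpins at the acceptor alone, 103 of 161 were ahead on the 5p arm. These are counts over hairpins, with no test.

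A shift of arm use between CRC and healthy mice was tested in only 2 hairpins of the range, mir-7011 and mir-7028, because both arms had to reach a mean of 10 counts. The log2 ratio of 5p to 3p counts was higher in CRC mice by 1.02 in mir-7011 (SE 0.77, limma adjusted p = 0.568) and by 1.44 in mir-7028 (SE 1.20, limma adjusted p = 0.614). Neither was called, beside a background of 0.427% of 234 hairpins (12.4% at an unadjusted p under 0.05). In mir-7028 the 5p arm had 0, 39 and 31 counts in M4, M5 and M6 and the 3p arm had 5, 27 and 16, so that M4 lay apart from the other CRC mice.

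**Figure D5:**
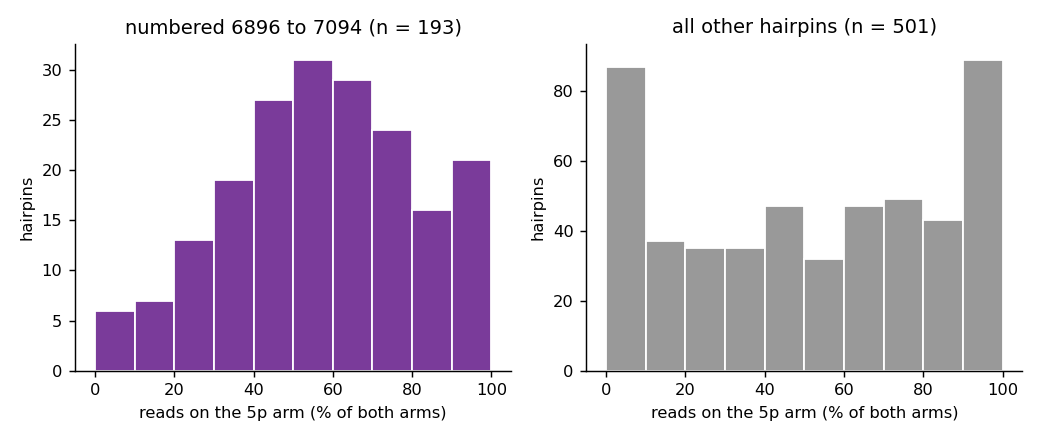
Number of hairpins by the share of their reads on the 5p arm, for 193 hairpins of the range (left) and 501 other hairpins (right) with at least 20 counts over both arms. The range is heaped between 40% and 70%, while the other hairpins, many of them far more abundant, have peaks below 10% and above 90%. Of the 318 other hairpins with no more counts than the highest of the range, 19 lay above 90% and 19 below 10%. In the range these numbers were 21 and 6 of 193.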

How the data were processed

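Small RNA of mouse colorectum was sequenced on an Ion Proton, per the labels' protocols, and the submitters' processing notes name BWA and mm10 (GRCm38). The deposited values are raw counts of reads per mature miRNA and mouse, per the file headers. The labels do not say how reads were assigned by strand or among several hairpins.

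The members and lists were chosen with earlier results of these data known. All 878 miRNAs that passed filterByExpr were fitted together with edgeR 4.0.16 in R 4.3.3 (TMM, robust glmQLFit, glmQLFTest, two-sided, Benjamini-Hochberg at 0.05), and members were read from that fit. Arm ratios were tested with limma 3.58.1 on log2 ratios with 0.5 added to each count. DESeq2 1.42.0 and limma-voom were alternatives. Both fits were tested on simulated data. The edgeR fit called 5 of 48 simulated 2-fold changes, 35 of 48 4-fold and 49 of 49 8-fold ones. Of its 141 calls 4 were false, and 2-fold changes were mostly missed. The arm fit called 40 of 40 simulated shifts, all of them large, with 2 false calls. Hairpins were placed on same-strand introns of GENCODE M21, with 5 bases as the limit for a splice site. GC trends were removed by loess (span 0.75) per profile. Mice are separate animals. Members were named by rule: those called, the 10 most abundant, the 5 highest and 5 lowest fold changes, the 6 most abundant hairpins with both arms, members next to the minimum, and listed mirtrons and Drosha-independent miRNAs. Of the marker lists, nerve miRNAs took 0.0138% to 0.0282% of reads.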

Additional observations from a re-analysis of the deposited data

How the results depend on the processing

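Low counts limit most members, and 199 of 273 were not tested. The number of members higher in CRC was 2 of 74 by upper quartile scaling and by a non-robust fit (background 2.28% each). Of the same 74, it was 4 with RLE factors (background 2.96%), 10 with total counts alone (4.78%) and 17 with DESeq2 (8.66%). With no filter it was 11 of 273 (2.72%). It was 0 of 74 with limma-voom (background 0%) and 1 of 74 with the GC trend removed (1.59%, also with TMM recomputed). With at least 50 CPM in 1 group, 0 of 3 members and 0 of 305 miRNAs were called. With profiles thinned to equal depth, 0 of 30 members and 0 of 689 miRNAs were called. Leaving out 1 mouse gave 0 (without M1, M5 or M6, background 0% in each) to 54 of 177 (without M4, background 14.3%). Leaving out M3 with M4, which lay closest across the groups in smooth muscle share, gave 68 of 154 higher (background 25.8%) and 6 lower (background 27.4%). Lower members were otherwise 0. The median log2 fold change of members was 1.75 with total counts alone, 3.65 at 50 CPM, 0.72 with the GC trend removed, 0.68 with TMM recomputed, 1.40 thinned, 1.61 without M3 and M4, and 0.72 to 1.80 without 1 mouse. Weighted by counts, mean GC was 60.7%. For arm preference, arm shift and splice position the alternatives moved the value by less than the spread or 1.5 times. The pooled share moved more: its ratio of CRC to healthy means was 4.86 on total counts and 2.73 on TMM-scaled totals. With a minimum of 100 counts it was 5.87.

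Of 17 tested named members, 4 changed sign in some of the settings, none of them called with all mice. For miR-7034-5p the log2 fold change was −0.0074 without M3 and 0.40 without M2, −0.45 without M3 and M4, −0.13 with the GC trend removed and −0.16 with TMM recomputed. For miR-6968-5p it was −0.29 and −0.33 with the GC trend removed, without and with TMM recomputed. For miR-7067-5p it was 0.062 with total counts, 1.39 with limma-voom, 2.94 without M3, 0.027 without M6, −0.70 without M1 and 2.41 without M3 and M4. For miR-7085-5p it was 0.064 without M1 and −1.53 without M3. The cause was not tested. No paired analysis was possible because healthy and CRC mice share no replicate number.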
